A study of Homo sapiens with 24 samples.

Results

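The 10 genes described here encode enzymes and pumps of glucuronidation, ester and epoxide hydrolysis, and drug export: UGDH, UGP2, EPHX1, CES1, ABCC1, ABCC2, ABCC3, ABCC4, ABCB6 and ABCG2. They were chosen by name, with earlier results of these data known, and were matched to the count table by Entrez gene ID. Of the 10 genes, 9 had a row among the 11927 features of the table. ABCB6 had none, and ABCC1 held 53 reads over all libraries and was left out of the tests by the filter on low counts, so that 8 of the 11152 genes tested were members.

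HepG2, an established human liver cancer line, was transduced with a lentivirus that carries Cas9 and 1 guide RNA and was selected with puromycin as a population, which the sources do not describe as a clone. The control guide, sgCtrl, cuts the AAVS1 safe-harbour locus, and sgKEAP1-1 and sgKEAP1-2 are different guides against KEAP1. All 3 populations therefore carried Cas9 and a guide, and each was reverse-transfected with a non-targeting siRNA, siNC, or with siRNA pools against both TFEB and TFE3, siTFEB/siTFE3. RNA was taken 72 hours later, and the 6 guide-by-siRNA groups held 4 libraries each, 24 in all. The 4 libraries of a group are numbered, and same-numbered libraries of all 6 groups carry the same date-like prefix in their descriptions. The prefix may mark a common day or set, but its meaning is not stated. The labels do not say whether the 4 were separate cultures, so the p-values below measure the spread between these libraries, which may be technical.

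KEAP1 holds the transcription factor NRF2 (gene NFE2L2) at a ubiquitin ligase for degradation. NRF2 binds antioxidant response elements and drives genes of glutathione synthesis, quinone reduction and drug clearance in the liver, while TFEB and TFE3 bind CLEAR elements of lysosomal genes. In hepatocytes, UDP-glucuronosyltransferases attach glucuronic acid from UDP-glucuronate to bilirubin, steroids and drugs, and ABC pumps of families C and G move the conjugates into bile or blood.

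The libraries held 3527000 to 4600951 reads each. Levels are given in CPM, read counts divided by the library total after trimmed-mean (TMM) scaling, and are compared between groups for 1 gene and not between genes. KEAP1 itself stood at 84.9 ± 6.69 CPM (SD, n = 4) in sgCtrl under siNC, 53.8 ± 6.17 with sgKEAP1-1 and 77.4 ± 3.89 with sgKEAP1-2, and passed the test with sgKEAP1-1 (log2 fold change -0.66, limma adjusted p = 0.000102) but not with sgKEAP1-2 (-0.14, adjusted p = 0.448). Reads at the 3′ end do not read a guide's cut site. TFE3 fell under siTFEB/siTFE3 in all 3 populations, by 1.57, 1.74 and 1.69 on the log2 scale, and TFEB fell by 2.15 and 1.67 in the KEAP1 populations, while its difference in sgCtrl was -1.96 with adjusted p = 0.0858. NFE2L2 stood at 223 ± 33.1, 178 ± 28.8 and 186 ± 13.4 CPM in sgCtrl, sgKEAP1-1 and sgKEAP1-2 under siNC and was not called in any of the 11 contrasts, whereas the NRF2 targets NQO1, GCLM and TXNRD1 were higher in each KEAP1 contrast. All 8 hepatocyte markers had reads in the table, and 5 of them (AFP, ALB, APOA1, FGB and TF) were lower in each KEAP1 contrast. Their summed level was 25310 to 34210 CPM in sgCtrl, 16020 to 17360 with sgKEAP1-1 and 14970 to 15930 with sgKEAP1-2 under siNC, and 23270 to 31970, 16160 to 17170 and 12830 to 19280 CPM under siTFEB/siTFE3, the last value from sgKEAP1-2 replicate 1 with the others at 15262 CPM or less. Of 11 markers of other cell types only CD68 had a row, at 0.9434 to 4.776 CPM. In bulk RNA, fewer cells that express a gene and less of its RNA per cell cannot be told apart. A pair of libraries stood apart from their groups. The siTFEB/siTFE3 sgKEAP1-2 replicate 1 library correlated with its group at r = 0.939 to 0.951 and gave 4.417% of its reads to MTRNR2L8, against 0.3749% to 1.232% in the other libraries, and siNC sgKEAP1-1 replicate 1 correlated with its group at 0.938 to 0.955, where all other pairs within groups lay at 0.967 to 0.98. Some of the member values that these libraries move are given with and without them.

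RefSeq promoter windows, 250 bases before to 50 after a transcript start, were held for 7 of the 10 genes. They were searched on both strands for TGACNNNGC, the core of the antioxidant response element, and for CACGTG, the E-box core of the CLEAR element. The first was found in 13.3% of all 35116 windows and the second in 7.26%. Counted by gene, 16.1% of 27305 genes had the first in at least 1 window and 8.77% the second. A gene with more windows has more places for a match. The 5 windows below are shown because they pair the motif with the measured change in different ways. EPHX1 and ABCG2 rose with both KEAP1 guides and each had TGACNNNGC in 1 of its windows, UGDH and ABCC2 rose and had neither motif in theirs, and ABCC4 had it and did not pass the test. Capitals mark the match, written on the gene's strand, and a match of the other strand appears as its reverse complement. The windows are on GRCh38.p14.
EPHX1 (chr1:225825104-225825403, plus strand): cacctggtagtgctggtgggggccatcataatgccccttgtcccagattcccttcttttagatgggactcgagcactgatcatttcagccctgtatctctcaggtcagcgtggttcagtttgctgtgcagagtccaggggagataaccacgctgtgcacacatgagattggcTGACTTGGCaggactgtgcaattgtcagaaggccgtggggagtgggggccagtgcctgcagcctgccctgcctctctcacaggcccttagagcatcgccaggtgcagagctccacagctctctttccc
ABCG2 (chr4:88159241-88159540, minus strand): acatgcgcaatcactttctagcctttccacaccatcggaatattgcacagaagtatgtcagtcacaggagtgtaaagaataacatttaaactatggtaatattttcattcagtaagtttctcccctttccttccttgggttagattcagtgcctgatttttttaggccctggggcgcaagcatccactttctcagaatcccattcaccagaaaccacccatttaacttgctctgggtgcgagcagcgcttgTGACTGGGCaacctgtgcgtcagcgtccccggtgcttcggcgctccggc
UGDH (chr4:39527390-39527689, minus strand): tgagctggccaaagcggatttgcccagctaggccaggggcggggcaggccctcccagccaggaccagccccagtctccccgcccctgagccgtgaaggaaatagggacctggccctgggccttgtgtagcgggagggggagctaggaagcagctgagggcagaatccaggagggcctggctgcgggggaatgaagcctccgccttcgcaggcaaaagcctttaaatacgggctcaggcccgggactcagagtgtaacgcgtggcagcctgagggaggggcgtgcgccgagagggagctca
ABCC2 (chr10:99782390-99782689, plus strand): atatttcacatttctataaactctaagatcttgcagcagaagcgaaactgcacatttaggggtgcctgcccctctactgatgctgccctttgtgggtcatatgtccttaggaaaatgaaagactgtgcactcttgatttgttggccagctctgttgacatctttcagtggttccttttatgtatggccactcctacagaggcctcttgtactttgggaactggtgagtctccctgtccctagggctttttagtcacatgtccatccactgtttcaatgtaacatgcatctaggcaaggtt
ABCC4 (chr13:95301402-95301701, minus strand): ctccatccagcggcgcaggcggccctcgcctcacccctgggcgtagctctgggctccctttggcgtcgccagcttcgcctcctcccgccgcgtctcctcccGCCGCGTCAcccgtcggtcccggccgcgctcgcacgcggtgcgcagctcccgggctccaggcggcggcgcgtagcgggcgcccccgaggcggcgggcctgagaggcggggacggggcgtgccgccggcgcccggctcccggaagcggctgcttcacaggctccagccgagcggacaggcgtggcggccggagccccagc
In the EPHX1 window the match began 78 bases before the transcript start (position -78), in ABCC4 it lay on the reverse strand at -149, and in ABCG2 it began at position 2 of the transcript. CACGTG lay in a pair of overlapping windows of ABCG2, at -171 and -121 from their starts, and in the window of ABCB6 at -156, where it overlapped a TGACNNNGC match at -152. UGP2 had neither motif in its windows, nor had the other windows of EPHX1. A match is a string of letters and not a measured binding site.

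Each KEAP1 guide was compared with sgCtrl under each siRNA, 4 contrasts in all. The same 6 genes, UGDH, EPHX1, CES1, ABCC2, ABCC3 and ABCG2, were higher in all 4 contrasts at a limma adjusted p below 0.05, which is 6 of the 8 tested (75%). Among all genes tested, 6.01% were higher and 4.91% lower with sgKEAP1-1 under siNC, and 7.58% were higher and 7.14% lower with sgKEAP1-2. Under siTFEB/siTFE3 the shares were 5.69% higher and 4.81% lower with sgKEAP1-1, and 10.6% higher and 9.59% lower with sgKEAP1-2. Because the genes were chosen with earlier results of these data known, the gap between 75% and these shares is not a test of the list. No member was lower, and UGP2 and ABCC4 did not pass the test in any of the 4 contrasts. The median log2 fold change of the 8 genes was 0.87 and 1.07 with sgKEAP1-1 and sgKEAP1-2 under siNC and 0.83 and 1.2 under siTFEB/siTFE3, beside medians over all tested genes of -0.02, 0, 0 and 0.01. Both guides under 1 siRNA were compared with the same 4 sgCtrl libraries, so their calls are not independent.

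For UGDH, EPHX1, CES1, ABCC2 and ABCC3, all 4 KEAP1 libraries lay above all 4 sgCtrl libraries in each of the 4 contrasts. Over all tested genes, this held for 7.67% and 11.0% with sgKEAP1-1 and sgKEAP1-2 under siNC, and for 9.06% and 10.6% under siTFEB/siTFE3. ABCG2 separated in this way with sgKEAP1-2 under both siRNAs, while with sgKEAP1-1 3 of its 4 libraries did so under each.

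**Figure D1:**
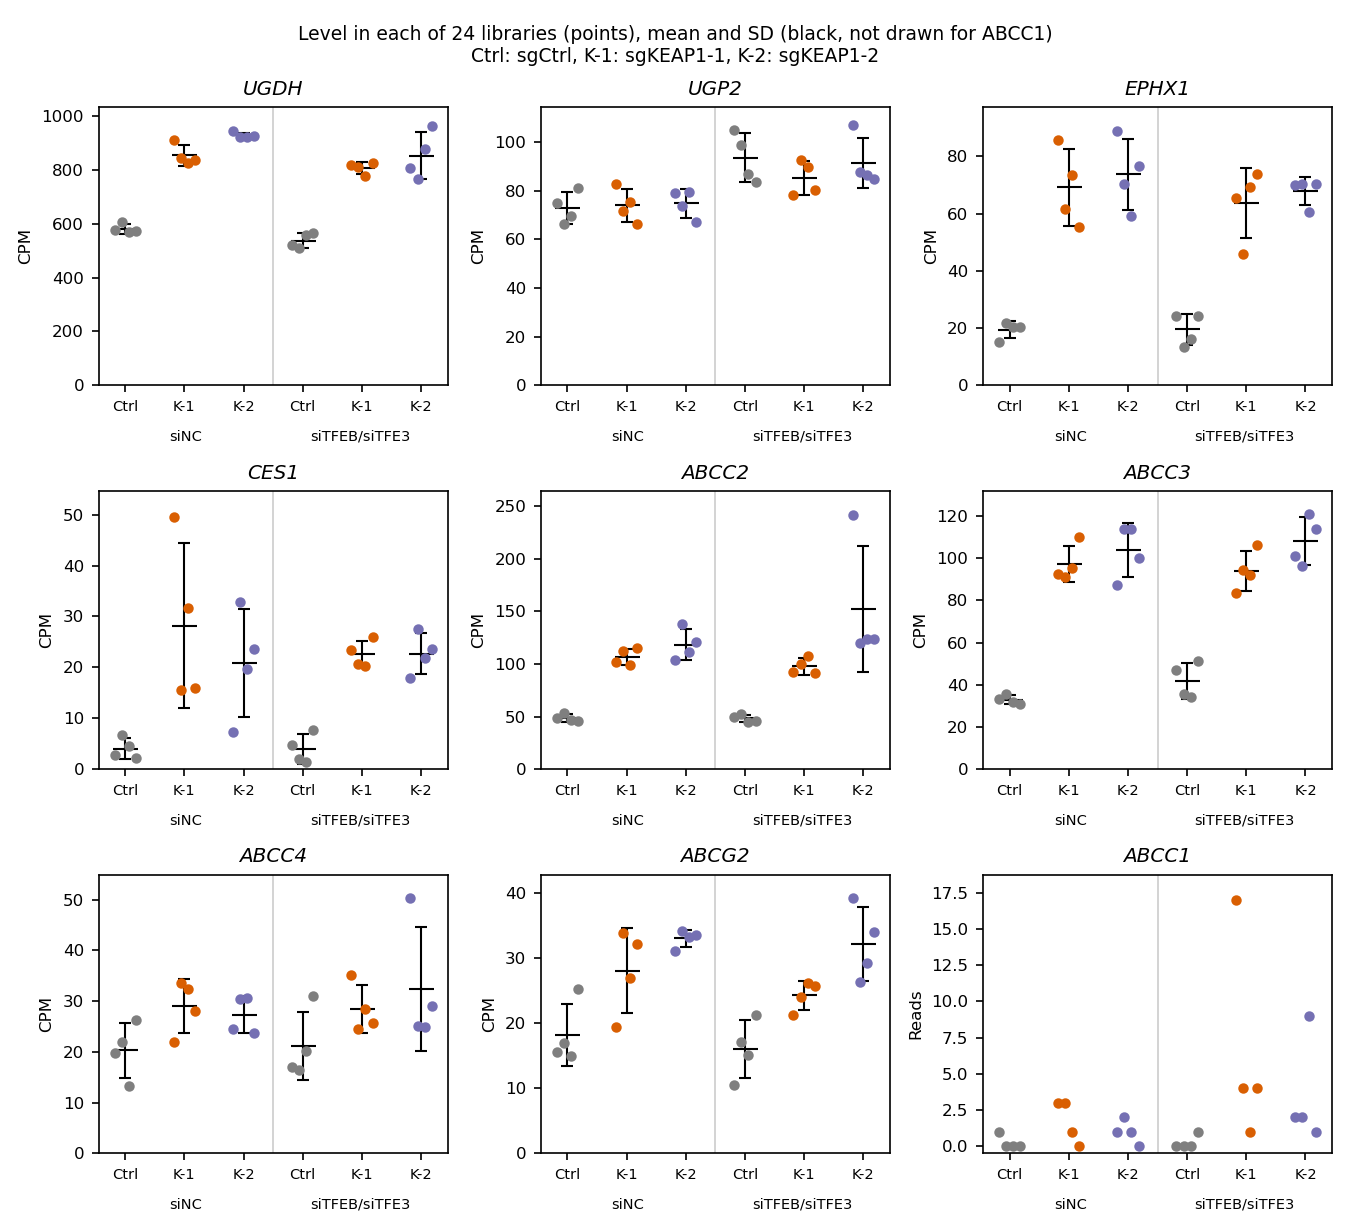
Level of the 9 genes with a row in each of the 24 libraries, in CPM (ABCC1 in reads), by guide and siRNA, with each point a library and the black bars the mean and SD of 4 libraries. The KEAP1 libraries of UGDH, EPHX1, CES1, ABCC2 and ABCC3 sit above all sgCtrl libraries under the same siRNA, and those of UGP2 do not.

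UGDH oxidises UDP-glucose to UDP-glucuronate, the donor of every glucuronidation reaction. It lies on chromosome 4 from 39500375 to 39529931 (GRCh37, minus strand). Under siNC its level was 577, 606, 568 and 572 CPM in the sgCtrl libraries, 911, 846, 824 and 836 CPM with sgKEAP1-1, and 944, 923, 922 and 925 CPM with sgKEAP1-2. Under siTFEB/siTFE3 the corresponding levels were 520, 509, 557 and 565 CPM, then 817, 812, 777 and 825 CPM, then 807, 767, 878 and 962 CPM. No KEAP1 library overlapped the sgCtrl range, and the SD within a group was 1.11% to 10% of the mean. The fold changes were 1.47 and 1.6 with sgKEAP1-1 and sgKEAP1-2 under siNC (log2 0.56 ± 0.07 and 0.68 ± 0.07 SE, limma adjusted p = 8.03e-06 and 2.64e-07) and 1.5 and 1.58 under siTFEB/siTFE3 (log2 0.59 ± 0.08 and 0.66 ± 0.08 SE, adjusted p = 4.38e-06 and 2.98e-07).

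UGP2, which makes UDP-glucose from glucose 1-phosphate and so feeds UGDH, lies on chromosome 2 from 64068086 to 64118696 (GRCh37, plus strand). Its level averaged 73 ± 6.5 CPM in sgCtrl, 74 ± 6.87 with sgKEAP1-1 and 74.9 ± 5.93 with sgKEAP1-2 under siNC, and 93.6 ± 10.2, 85.2 ± 7.02 and 91.5 ± 10.4 CPM under siTFEB/siTFE3 (SD, n = 4). The ranges overlapped in each of the 4 contrasts. The log2 differences were 0.02 (95% interval -0.21 to 0.25), 0.04 (-0.19 to 0.26), -0.13 (-0.35 to 0.09) and -0.04 (-0.25 to 0.18), with limma adjusted p between 0.53 and 0.945. Those intervals lie below the 0.56 to 0.68 measured for UGDH in the same contrasts.

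Among the other 5 genes of UDP-glucuronate supply, all tested, PGM1 and SLC35D1 were lower in each KEAP1 contrast. PGM1, which interconverts glucose 6-phosphate and glucose 1-phosphate upstream of UGP2, fell from 84 ± 5.21 CPM in sgCtrl to 51.1 ± 6.15 and 54.1 ± 4.73 CPM with the guides under siNC (log2 -0.72 and -0.63, limma adjusted p = 0.000128 and 0.000367). SLC35D1, a carrier of UDP-glucuronate into the endoplasmic reticulum, fell from 64.8 ± 7.28 to 47.9 ± 7.35 and 48.7 ± 3.33 CPM (log2 -0.44 and -0.4, adjusted p = 0.0191 and 0.0251). None of the 5 was higher under siNC, and 1 was higher with sgKEAP1-2 under siTFEB/siTFE3. Within the supply route, UGDH was thus higher while PGM1 and SLC35D1 were lower and UGP2 was not called.

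Of 20 UDP-glucuronosyltransferases, the enzymes that use this donor, 5 had a row and 4 were tested, of which 2 were higher and none lower in 3 of the KEAP1 contrasts. UGT1A1, the bilirubin-conjugating enzyme, had 0 to 2 reads in each of the 8 sgCtrl libraries and 17 to 45 in the 16 KEAP1 libraries. Summed over a group, that was 4 reads against 114 and 125 under siNC, a ratio of 28.5 (95% counting interval 10.8 to 106) with sgKEAP1-1 and 30.6 (11.6 to 114) with sgKEAP1-2. Under siTFEB/siTFE3 it was 5 reads against 91 and 131, a ratio of 18.4 (7.6 to 58) and 26.7 (11.1 to 83.5). These intervals cover counting error only, and reads of PCR copies are not independent molecules. The UGT1A genes share their last exons, where 3′ reads fall, so the reads cannot be given to UGT1A1 over another UGT1A gene. UGT2B7, which conjugates steroids and opioids, rose from 45 ± 4.8 CPM to 76.1 ± 8.14 and 91.8 ± 1.69 under siNC (log2 0.76 and 1.04), and from 48.8 ± 2.68 to 62.7 ± 5.52 and 71.9 ± 12.2 under siTFEB/siTFE3 (log2 0.36 and 0.55, limma adjusted p = 0.0497 and 0.00117). UGT2B11, a close homologue that may share reads with it, passed only with sgKEAP1-2 under siTFEB/siTFE3 (log2 0.68, limma adjusted p = 0.0448). None of the 4 tested transferases was called between the guides under either siRNA. Nor was any called when the response to a guide was compared between the siRNAs.

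EPHX1, the microsomal epoxide hydrolase, opens reactive epoxides into diols that can be conjugated. It lies on chromosome 1 from 225997826 to 226033264 (GRCh37, plus strand). Its level under siNC was 15.2, 21.7, 20.4 and 20.5 CPM in sgCtrl, 85.9, 61.7, 73.7 and 55.4 CPM with sgKEAP1-1, and 88.9, 70.5, 59.2 and 76.6 CPM with sgKEAP1-2. Under siTFEB/siTFE3 it was 24.2, 13.5, 16.2 and 24.3 CPM in sgCtrl, 65.5, 45.9, 69.3 and 73.9 CPM with sgKEAP1-1, and 70.2, 70.4, 60.7 and 70.4 CPM with sgKEAP1-2. The lowest KEAP1 library, at 45.9 CPM, lay above the highest sgCtrl library, at 24.3 CPM. EPHX1 rose 3.52- and 3.76-fold under siNC (log2 1.82 ± 0.2 and 1.91 ± 0.2 SE, limma adjusted p = 5.38e-07 and 1.21e-07) and 3.31- and 3.58-fold under siTFEB/siTFE3 (1.73 ± 0.2 and 1.84 ± 0.2 SE, adjusted p = 1.19e-06 and 1.67e-07).

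CES1, the main carboxylesterase of the liver, cleaves ester drugs and lipids. It lies on chromosome 16 from 55836763 to 55867249 (GRCh37, minus strand) and has a near-identical pseudogene copy, so its reads may be split or dropped in counting. Its counts were low in sgCtrl, at 11, 27, 16 and 9 reads under siNC and 18, 8, 6 and 31 under siTFEB/siTFE3. Its level under siNC was 2.79, 6.73, 4.59 and 2.12 CPM in sgCtrl, 49.6, 15.6, 31.7 and 15.9 CPM with sgKEAP1-1, and 7.34, 32.8, 19.7 and 23.7 CPM with sgKEAP1-2. Under siTFEB/siTFE3 it was 4.74, 1.93, 1.39 and 7.68 CPM in sgCtrl, 23.5, 20.7, 20.3 and 25.9 CPM with sgKEAP1-1, and 17.9, 27.6, 21.8 and 23.6 CPM with sgKEAP1-2. CES1 had the widest spread of the 6 genes, up to an SD of 73.6% of the mean in sgCtrl, and its lowest siNC KEAP1 library, 7.34 CPM, lay just above the highest siNC sgCtrl library, 6.73 CPM. Its fold changes were also the highest of the 8 genes in each contrast, 6.69 and 4.98 under siNC (log2 2.74 ± 0.57 and 2.32 ± 0.58 SE, limma adjusted p = 0.00154 and 0.00656) and 7.03 and 7.06 under siTFEB/siTFE3 (2.81 ± 0.59 and 2.82 ± 0.59 SE, adjusted p = 0.00188 and 0.000996). The 95% interval under siNC with sgKEAP1-2 ran from 1.13 to 3.5 on the log2 scale. The highest level, 49.6 CPM, came from siNC sgKEAP1-1 replicate 1, and without that library the change with sgKEAP1-1 was 2.42 (adjusted p = 0.0022).

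In a list of 11 other epoxide hydrolases and esterases, 5 were tested. PON2, a lactonase, was higher in each KEAP1 contrast by 0.3 to 0.41 on the log2 scale, and CES2, the second liver carboxylesterase, was lower by 0.39 to 0.43. CES2 fell from 165 ± 12.3 CPM to 123 ± 13.3 and 125 ± 10.5 CPM under siNC (limma adjusted p = 0.00589 and 0.00807), the opposite direction to CES1.

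ABCC2 (MRP2) pumps glucuronides such as those of bilirubin from the hepatocyte into bile. It lies on chromosome 10 from 101542397 to 101612351 (GRCh37, plus strand). Its level under siNC was 48.5, 53.9, 47.1 and 46 CPM in sgCtrl, 102, 112, 99 and 115 CPM with sgKEAP1-1, and 104, 138, 111 and 121 CPM with sgKEAP1-2. Under siTFEB/siTFE3 it was 49.5, 52.9, 44.5 and 46.3 CPM in sgCtrl, 92, 99.9, 108 and 91.4 CPM with sgKEAP1-1, and 242, 120, 124 and 124 CPM with sgKEAP1-2. The lowest KEAP1 library, at 91.4 CPM, stood well above the highest sgCtrl library, at 53.9 CPM, and the value of 242 CPM came from the library rich in MTRNR2L8 reads. ABCC2 rose 2.19- and 2.41-fold under siNC (log2 1.13 ± 0.17 and 1.27 ± 0.17 SE, limma adjusted p = 2.73e-05 and 3.22e-06) and 2.02- and 2.99-fold under siTFEB/siTFE3 (1.02 ± 0.17 and 1.58 ± 0.16 SE, adjusted p = 0.000121 and 6.75e-08). Without that library the last value was 1.35 (adjusted p = 1.3e-09).

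ABCC3 (MRP3) exports glucuronides and bile salts across the basolateral membrane to blood. It lies on chromosome 17 from 48712138 to 48769614 (GRCh37, plus strand). Under siNC its level was 33.5, 35.7, 31.9 and 30.9 CPM in sgCtrl, 92.7, 90.9, 95.3 and 110 CPM with sgKEAP1-1, and 87.5, 114, 114 and 99.9 CPM with sgKEAP1-2. With siTFEB/siTFE3 it was 47.1, 35.5, 34.1 and 51.3 CPM in sgCtrl, 83.4, 94.5, 91.8 and 106 CPM with sgKEAP1-1, and 101, 96.2, 121 and 114 CPM with sgKEAP1-2. All KEAP1 libraries lay at 83.4 CPM or more and all sgCtrl libraries at 51.3 CPM or less. The fold changes were 2.94 and 3.13 under siNC (log2 1.56 ± 0.14 and 1.64 ± 0.14 SE, limma adjusted p = 1.04e-08 and 2.11e-09) and 2.27 and 2.62 under siTFEB/siTFE3 (1.18 ± 0.13 and 1.39 ± 0.13 SE, adjusted p = 4.99e-07 and 1.26e-08).

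ABCC4 (MRP4), a basolateral pump of conjugated bile acids, steroids and cyclic nucleotides, lies on chromosome 13 from 95672089 to 95953729 (GRCh37, minus strand). It averaged 20.3 ± 5.41 CPM in sgCtrl, 29 ± 5.3 with sgKEAP1-1 and 27.4 ± 3.73 with sgKEAP1-2 under siNC, and 21.2 ± 6.74, 28.4 ± 4.75 and 32.4 ± 12.2 CPM under siTFEB/siTFE3 (SD, n = 4). The ranges overlapped in each of the 4 contrasts, with sgCtrl libraries from 13.2 to 31 CPM and KEAP1 libraries from 21.9 to 50.4 CPM. The log2 differences were 0.51 (95% interval 0.04 to 0.99), 0.44 (-0.04 to 0.92), 0.44 (-0.02 to 0.91) and 0.56 (0.1 to 1.03), and the limma adjusted p were 0.179, 0.23, 0.261 and 0.0806. ABCC4 therefore missed the threshold over all genes while its intervals reach a doubling or nearly so, and its highest value, 50.4 CPM, again came from the library rich in MTRNR2L8 reads. Without that library the difference was 0.36 (adjusted p = 0.264), and without siTFEB/siTFE3 sgCtrl replicate 4, its highest sgCtrl library, ABCC4 was called with sgKEAP1-2 (log2 0.76, adjusted p = 0.0248).

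ABCG2 (BCRP), a canalicular pump of sulfated and glucuronidated drugs, lies on chromosome 4 from 89011302 to 89152780 (GRCh37, minus strand). Its level under siNC was 15.5, 17, 14.9 and 25.2 CPM in sgCtrl, 19.4, 33.9, 26.9 and 32.1 CPM with sgKEAP1-1, and 31.1, 34.2, 33.2 and 33.6 CPM with sgKEAP1-2. Under siTFEB/siTFE3 it was 10.5, 17.1, 15.1 and 21.3 CPM in sgCtrl, 21.3, 24, 26.2 and 25.7 CPM with sgKEAP1-1, and 39.3, 26.3, 29.3 and 34 CPM with sgKEAP1-2. The sgKEAP1-2 libraries stood clear of sgCtrl, while replicate 1 of sgKEAP1-1 reached into the sgCtrl range under siNC and only met its upper end under siTFEB/siTFE3. With sgKEAP1-2, ABCG2 rose 1.84- and 2.02-fold (log2 0.88 ± 0.19 and 1.02 ± 0.2 SE, limma adjusted p = 0.00236 and 0.000502). With sgKEAP1-1 it rose 1.53- and 1.55-fold (0.61 ± 0.2 and 0.63 ± 0.21 SE), with adjusted p = 0.048 under each siRNA, just inside the threshold. Without siNC sgKEAP1-1 replicate 1, which held the overlapping 19.4 CPM, the change under siNC was 0.78 (adjusted p = 0.00678). The calls with sgKEAP1-1 were lost in 14 of the 24 fits that leave out 1 library under siNC (adjusted p up to 0.131, without sgCtrl replicate 1) and in 15 of 24 under siTFEB/siTFE3 (up to 0.188, without its sgCtrl replicate 1). In each contrast the libraries of its own groups whose omission lost the call were sgCtrl replicates 1, 2 and 3 and sgKEAP1-1 replicates 2, 3 and 4, and the others belonged to the remaining groups, which share the estimate of spread (adjusted p up to 0.0549 and 0.0567).

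ABCC1 (MRP1), a pump of glutathione and glucuronide conjugates, lies on chromosome 16 from 16042995 to 16237114 (GRCh37, plus strand). It had 2 reads in all over the 8 sgCtrl libraries and 51 over the 16 KEAP1 libraries, of which 14 held a read, and only 4 libraries exceeded the floor of 3 reads. Under siNC the reads were 1, 0, 0 and 0 in sgCtrl, 3, 3, 1 and 0 with sgKEAP1-1, and 1, 2, 1 and 0 with sgKEAP1-2. Under siTFEB/siTFE3 they were 0, 0, 0 and 1 in sgCtrl, 17, 4, 1 and 4 with sgKEAP1-1, and 2, 2, 9 and 1 with sgKEAP1-2. At this depth a change under siNC was not detectable: the ratio of summed reads was 6.99 (95% counting interval 0.898 to 315) and 3.91 (0.387 to 193). Under siTFEB/siTFE3 it was 26.3 (4.32 to 1080) and 14.2 (2.17 to 602), and 1 library gave 17 of the 26 reads of sgKEAP1-1. When the filter on low counts was dropped, ABCC1 was not called in any KEAP1 contrast, with limma adjusted p between 0.0599 and 0.679.

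**Figure D2:**
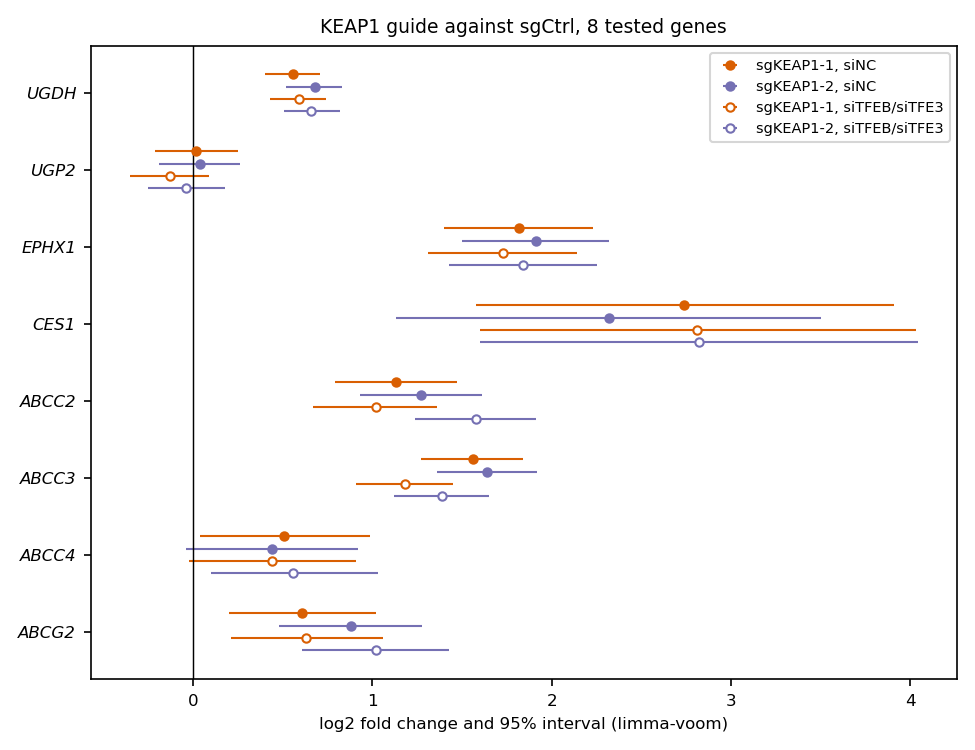
Log2 fold change of the 8 tested genes between a KEAP1 guide and sgCtrl under the same siRNA, with bars for the 95% interval of the limma fit to 24 libraries. UGDH, EPHX1, CES1, ABCC2, ABCC3 and ABCG2 lie right of 0 in all 4 contrasts, and UGP2 spans 0 in all 4.

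Of 22 other ABC transporters of families B, C and G, 11 were tested, and 1 was higher and 1 or 2 lower in each KEAP1 contrast, a share higher of 9.09% that lies close to that of all genes. ABCC5, an exporter of cyclic nucleotides, rose from 21.6 ± 4.46 CPM to 42.9 ± 5.92 and 47.3 ± 4.84 CPM under siNC (log2 1 and 1.14, limma adjusted p = 0.000162 and 1.74e-05). ABCB4, the floppase that supplies phosphatidylcholine to bile, fell from 28.6 ± 5.96 to 16.6 ± 3.56 and 14.8 ± 0.966 CPM (log2 -0.79 and -0.92, adjusted p = 0.00757 and 0.00177). Among 13 drug and bile acid carriers of SLC families, 8 were tested. SLCO4C1, an organic anion carrier, was lower in each KEAP1 contrast by 2.09 to 3.06 on the log2 scale, and SLC47A1, a proton-coupled efflux carrier of cationic drugs, by 0.53 to 0.96. SLCO2B1, an uptake carrier of organic anions, was higher under siNC (log2 1.65 and 1.86, limma adjusted p = 0.00146 and 0.000273), and its differences of 0.62 and 0.76 under siTFEB/siTFE3 were not called. None of the 8 tested carriers was called when the response to a guide was compared between the siRNAs.

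The other clearance enzymes moved in both directions. Of 12 sulfation genes, 7 were tested. SULT1A1 and SULT1A2, near-identical phenol sulfotransferases whose reads may be shared, were higher in each KEAP1 contrast by 0.84 to 1.28 on the log2 scale, while SULT1C2, another sulfotransferase, was lower by 1.46 to 3.08. PAPSS1, which makes the sulfate donor, was lower under siNC (log2 -0.5 and -0.47, limma adjusted p = 0.0375 and 0.0393) and not called under siTFEB/siTFE3 (-0.04 and -0.22). For none of the 7 tested sulfation genes was a difference in response between the siRNAs called. In the list of 19 cytochrome P450 genes and partners, of which 7 were tested, CYP2S1 rose from 2.23 ± 1.19 CPM to 11.5 ± 1.94 and 15.6 ± 4.32 CPM under siNC (log2 2.43 and 2.83). POR, the reductase that passes electrons to P450 enzymes, fell from 237 ± 35.2 to 171 ± 4.26 and 158 ± 3.75 CPM (log2 -0.46 and -0.58, adjusted p = 0.00832 and 0.000895). Of 10 xenobiotic sensors and liver transcription factors, 8 were tested, none was higher, and 1 to 3 were lower in a KEAP1 contrast. None of these 8 was called with both guides under siNC.

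**Figure D3:**
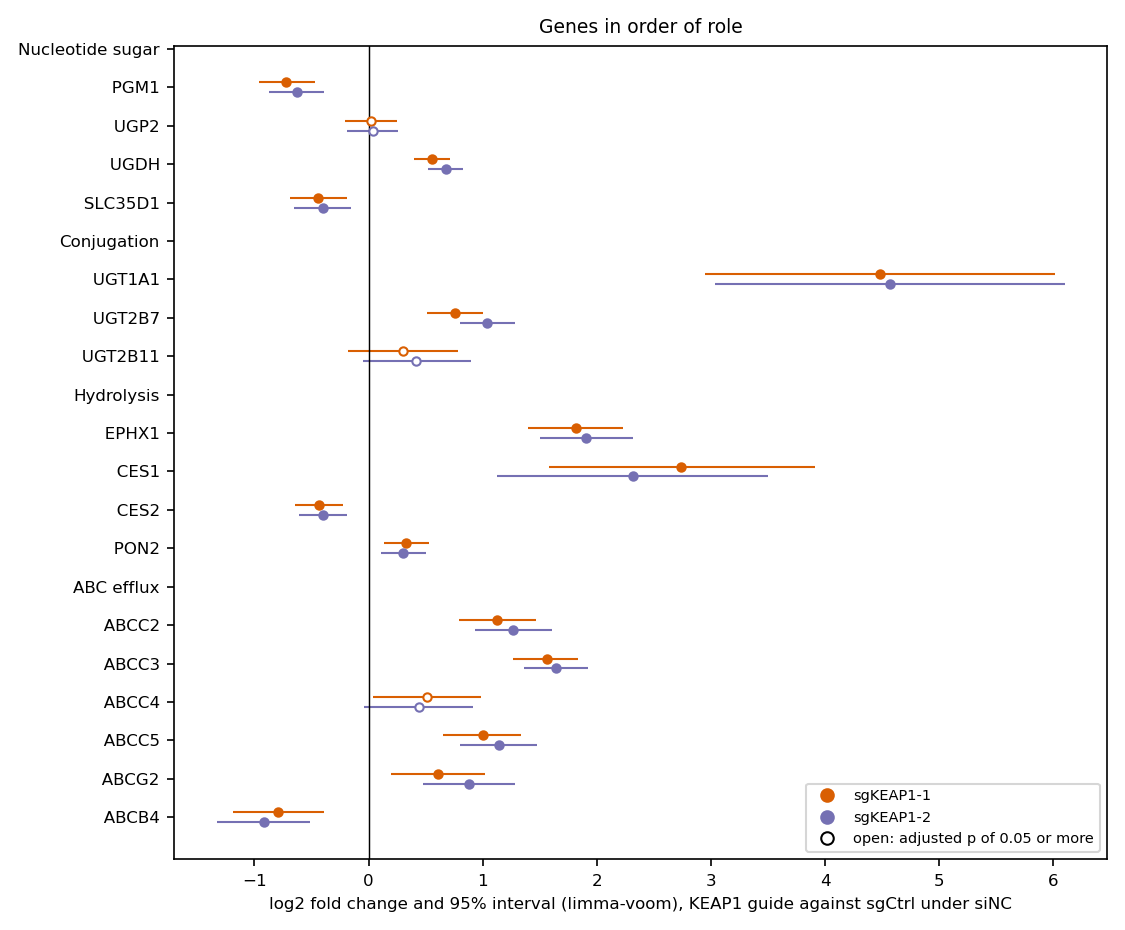
Log2 fold change with 95% interval between a KEAP1 guide and sgCtrl under siNC for the tested genes of glucuronidation, hydrolysis and ABC efflux that are named here, in order of role, with open points for an adjusted p of 0.05 or more. Within nucleotide sugar supply UGDH lies right of 0 and PGM1 and SLC35D1 left of it, and ABCB4 lies left of 0 among the ABC genes.

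Knockdown of TFEB and TFE3 was compared with siNC within each guide population. None of the 8 genes was called, where 0.0179%, 0.0897% and 0.359% of all tested genes were called in sgCtrl, sgKEAP1-1 and sgKEAP1-2. The contrasts held 516, 901 and 1169 genes at an unadjusted p below 0.05, and in DESeq2 fits 11, 48 and 108 genes passed the adjusted threshold. A limma fit with the replicate block called 4, 30 and 57, and 0 members passed in either. The 24 log2 differences of the members ran from -0.22 to 0.35. Without siTFEB/siTFE3 sgKEAP1-2 replicate 1, the difference in sgKEAP1-2 moved from 0.29 to 0.06 for ABCC2 and from 0.16 to -0.05 for ABCC4. Without siNC sgKEAP1-1 replicate 1, the difference in sgKEAP1-1 moved from -0.15 to 0.18 for CES1 and from -0.17 to -0.34 for ABCG2. None of these was called. UGDH stood at 538 ± 27.5 against 581 ± 16.9 CPM in sgCtrl (log2 -0.11, 95% interval -0.27 to 0.04), and its interval excluded a change of the size seen with the KEAP1 guides in each population. For CES1, at 3.93 ± 2.9 against 4.06 ± 2.06 CPM in sgCtrl, the interval of -1.76 to 1.31 excluded little.

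UGP2 had the lowest unadjusted p of the members in these contrasts. In sgCtrl its level was 74.9, 66.3, 69.5 and 81.1 CPM under siNC and 105, 98.8, 86.9 and 83.5 CPM under siTFEB/siTFE3 (log2 0.35 ± 0.11 SE, unadjusted p = 0.00301, limma adjusted p = 0.757). In sgKEAP1-2 its level was 79.3, 73.7, 79.5 and 67 CPM against 107, 87.6, 86.6 and 84.8 CPM (log2 0.28 ± 0.11 SE, unadjusted p = 0.0151, adjusted p = 0.313, and 0.21 with adjusted p = 0.628 without the library at 107 CPM). In sgKEAP1-1 the difference was 0.2 ± 0.11 SE on the log2 scale (adjusted p = 0.66). UGP2 was thus higher after knockdown in these libraries by an amount that did not pass the correction over all genes. ABCC3 was at 42 ± 8.52 against 33 ± 2.08 CPM in sgCtrl (log2 0.32 ± 0.15 SE, unadjusted p = 0.038, adjusted p = 1), and its differences with the KEAP1 guides were -0.05 and 0.07.

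**Figure D4:**
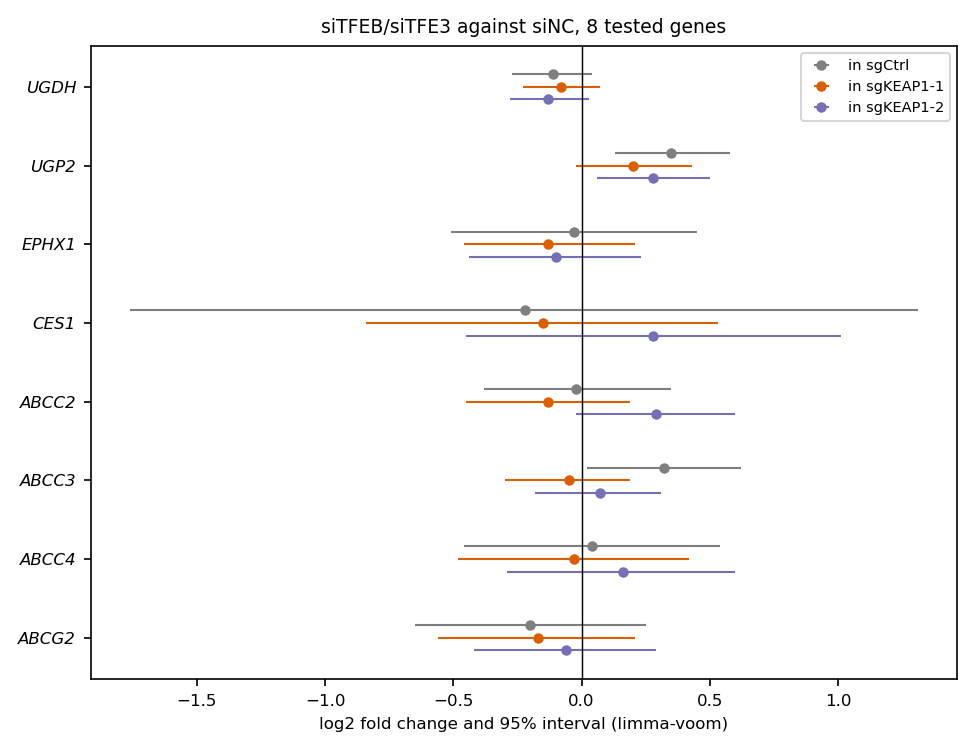
Log2 fold change of the 8 tested genes between siTFEB/siTFE3 and siNC within sgCtrl, sgKEAP1-1 and sgKEAP1-2, with bars for the 95% interval of the limma fit. The 24 values lie between -0.22 and 0.35, none passed an adjusted p of 0.05, and CES1 has the widest interval, from -1.76 to 1.31 in sgCtrl.

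Whether the response to a KEAP1 guide differed between the siRNAs was tested as an interaction. No member passed with either guide, as no gene of the table did (0% for each), while 304 and 454 genes had an unadjusted p below 0.05 and DESeq2 called 0 genes in each. Over the 16 tests of members the interaction ran from -0.37 to 0.5 on the log2 scale. ABCC3 with sgKEAP1-1 had the lowest unadjusted p, 0.0598, at -0.37 (95% interval -0.76 to 0.02). For UGDH the interactions of 0.03 (-0.19 to 0.25) and -0.01 (-0.23 to 0.2) bound any change of its response to within about 0.25, and for CES1 the intervals of -1.61 to 1.75 and -1.19 to 2.2 were too wide to bound it.

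The guides were also compared with each other. Under siNC no member and no gene was called (0% of those tested, with 598 genes at an unadjusted p below 0.05 and 9 called by DESeq2 and 2 with the replicate block), and under siTFEB/siTFE3 no member and 0.00897% of genes were called (1 gene, with 856 at an unadjusted p below 0.05 and 11 called with the replicate block). ABCC2 had a difference of 0.56 ± 0.15 SE on the log2 scale between sgKEAP1-2 and sgKEAP1-1 under siTFEB/siTFE3 (unadjusted p = 0.00102, limma adjusted p = 0.415), and of 0.33 (adjusted p = 0.486) without the library at 242 CPM. ABCG2 had a difference of 0.38 ± 0.18 SE in the same contrast (adjusted p = 0.648, and 0.29 with adjusted p = 0.798 without that library), and the remaining members had unadjusted p above 0.05. UGDH differed by 0.12 (95% interval -0.03 to 0.27) and 0.08 (-0.08 to 0.23) between the guides, and EPHX1 by 0.09 (-0.24 to 0.42) and 0.11 (-0.22 to 0.45).

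For each of the 6 called genes, the 3 genes outside the list with the most similar pattern over the 24 libraries were sought among 10530 genes by Pearson's r of log2 CPM. The libraries fall into sgCtrl and KEAP1 clusters and share library preparation and scaling, so r describes mainly that split. The nearest genes were TALDO1 (r = 0.97), PANX2 (0.97) and OSGIN1 (0.969) for UGDH, and AKR1C2 (0.978), TALDO1 (0.972) and OSGIN1 (0.97) for EPHX1. For CES1 they were MAP2 (0.925), TINAG (0.925) and ATP6V0E1 (0.919), and for ABCC3 MAP2 (0.979), PTGR1 (0.978) and SEL1L3 (0.978). ABCC2 lay nearest to DSTN (0.956), TXNRD1 (0.956) and RNF213 (0.953), and ABCG2 to EPS8L3 (0.914), MAP1B (0.912) and S100P (0.906). After each library's group mean was subtracted, r between pairs of the 6 genes ranged from -0.32 (UGDH and ABCC2) to 0.58 (CES1 and ABCC3).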

How the data were processed

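Gene expression was measured by QuantSeq 3′ RNA sequencing in 24 HepG2 libraries. The authors deposited raw counts of reads per Entrez gene ID. The submitters' processing notes name FastQC 0.72, cutadapt 1.16, STAR 2.7.5b, featureCounts 1.6.3 and limma 3.40.6. The study's methods name hg19 and the notes hg38, and the annotation and strand setting are not given in the sources used here, so antisense and overlapping genes cannot be told apart. The smallest row total was 15 reads.

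Of 13446 rows, 1414 without a gene ID (1.347% to 2.57% of reads) were left out, 43 rows that shared 20 IDs were summed, and 160 IDs with identical counts were collapsed, which left 11927 features. Low counts were removed with filterByExpr (11152 genes kept) and TMM scaling, voom and limma 3.58.1 (edgeR 4.0.16, R 4.3.3) were applied to all 24 libraries with 6 group means, 11 contrasts and Benjamini-Hochberg adjustment over all genes at 0.05. All tests were two-sided, and the fits were tested on simulated data. The count model of edgeR, DESeq2 1.42.0, other scalings, filters, samples and a replicate block were tried as alternatives. Same-numbered libraries share a prefix in the labels. Their deviations from the group means correlated at -0.163 to 0.43 (median 0.0465, 20 of 60 pairs over 0.1), against a median of -0.0245 and 17 of 180 pairs for different numbers, and 15 of 24 libraries correlated best with a library of their own number. Counting intervals are exact (Clopper-Pearson).

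Named were all 10 members, KEAP1, TFEB, TFE3 and NFE2L2, up to 4 genes of each other list that passed with both guides under siNC in the same direction, any UDP-glucuronosyltransferase called with a KEAP1 guide, and the 3 nearest genes of each called member. The members and lists were chosen with earlier results of these data known. Gene positions are from the GENCODE annotation on GRCh37 and promoters from RefSeq on GRCh38.p14.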

Additional observations from a re-analysis of the deposited data

Results flagged for a closer look

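Within the 48 combinations of a tested gene and a group of 4 libraries, 5 held a library far from the others by Dixon's test, where chance gives about 1 in 20, or 2.4. Of these, 3 came from siTFEB/siTFE3 sgKEAP1-2 replicate 1, the library with 4.417% of reads in MTRNR2L8: ABCC2 at 242 CPM against 120 to 124 in the others, ABCC4 at 50.4 CPM against 25 to 29, and UGP2 at 107 CPM against 84.8 to 87.6. In siTFEB/siTFE3 sgKEAP1-2 replicate 3, EPHX1 stood at 60.7 CPM against 70.2 to 70.4. In siNC sgKEAP1-2 replicate 1, UGDH stood at 944 CPM against 922 to 925, a gap that is small beside the difference from sgCtrl. The part of the MTRNR2L8 share in these values was not tested.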

How the results depend on the processing

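The number of members called in the KEAP1 contrasts was 6 in each, and ranged over the alternatives from 5 to 7 and 6 to 6 with sgKEAP1-1 and sgKEAP1-2 under siNC, and from 5 to 6 and 6 to 7 under siTFEB/siTFE3. With a log2 fold change of at least 1 required as well, 4, 4, 4 and 5 passed. Knockdown, guide and interaction contrasts called 0 members in all alternatives. Of the 24 called values, none changed sign and 22 kept their call throughout. The exceptions were the calls of ABCG2 with sgKEAP1-1, lost in 16 and 18 of 36 alternatives under siNC and siTFEB/siTFE3 (adjusted p up to 0.134 and 0.188). ABCC4 gained a call with sgKEAP1-1 under siNC in 3 alternatives (sample quality weights, log2 0.69, adjusted p = 0.0145, leaving out the 6 libraries numbered 1, 0.63, 0.0478, and leaving out siNC sgKEAP1-1 replicate 1 with siTFEB/siTFE3 sgKEAP1-2 replicate 1, chosen after seeing the data, 0.64, 0.0286), and with sgKEAP1-2 under siTFEB/siTFE3 without sgCtrl replicate 4 (0.76, 0.0248). The cause was not tested. The 64 values that were not called changed sign in 116 of 2304 alternative fits. Counts over all genes moved by over 1.5 times in the knockdown contrasts, from 2, 10 and 40 to 11, 48 and 108 with DESeq2, 4, 30 and 57 with the replicate block, and 2, 1 and 11 when only the groups compared were fitted. Leaving out 1 library gave 1 to 2, 3 to 18 and 12 to 61 genes, lowest without siTFEB/siTFE3 sgKEAP1-1 replicate 2 (3) and siNC sgKEAP1-2 replicate 3 (12) and highest without siTFEB/siTFE3 sgKEAP1-2 replicate 1 (18) and siNC sgKEAP1-1 replicate 1 (61). They moved in the KEAP1 contrasts from 1218 to 766 when only the groups compared were fitted (sgKEAP1-1, siNC), and with quality weights from 1641 to 2470 (sgKEAP1-2, siNC) and from 1170 to 1991 (sgKEAP1-1, siTFEB/siTFE3). The fit with the replicate block called 6 members in each KEAP1 contrast and 0 in the others, and changed no call of a member. Depth limits ABCC1, with 53 reads in all, and ABCB6 has no row.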
